A study of Homo sapiens with 9 samples.

Results

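The miR-181 family was examined in small RNA libraries of Jurkat clone E6-1, a human leukaemic T cell line. Its 10 mature miRNAs were taken by name from a count table of 2654 mature miRNA names. They are the 5p arms hsa-miR-181a-5p, hsa-miR-181b-5p, hsa-miR-181c-5p and hsa-miR-181d-5p and the 3p arms hsa-miR-181a-3p, hsa-miR-181a-2-3p, hsa-miR-181b-3p, hsa-miR-181b-2-3p, hsa-miR-181c-3p and hsa-miR-181d-3p, written below without the species prefix. The table gives a row to each pair of precursor and mature miRNA, so miR-181a-5p and miR-181b-5p each have 2 rows and the family has 12 of the 2883 rows. There were 3 groups of 3 libraries each. Unstimulated cells were the 0 h control, and the other cells were kept for 5 h or 12 h on plates coated with antibody to CD3 (10 µg/mL) with antibody to CD28 (5 µg/mL) in the medium. All 9 libraries came from 1 cell line. The labels state 3 biological replicates per time but do not say whether these were separate cultures. The p-values therefore measure the spread between these libraries, which may be technical.

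MicroRNAs are short RNAs that guide Argonaute proteins to messenger RNAs, mainly through the seed, bases 2 to 8 counted from the 5′ end. Each is cut from a hairpin precursor that can yield a miRNA from its 5′ side (the 5p arm) and another from its 3′ side (the 3p arm). In mice, miR-181a is abundant in immature thymocytes, where it lowers the level of several phosphatases and raises the sensitivity of the T cell receptor, and loss of the miR-181a-1 and miR-181b-1 locus impairs the development of natural killer T cells.

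The mature sequences are shown because the 5p arms share 1 seed while the 3p arms do not. All 10 were matched in RefSeq (GRCh38.p14). Capitals mark the seed.
miR-181a-5p: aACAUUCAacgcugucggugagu
miR-181b-5p: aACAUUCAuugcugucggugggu
miR-181c-5p: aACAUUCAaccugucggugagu
miR-181d-5p: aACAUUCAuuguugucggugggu
miR-181a-3p: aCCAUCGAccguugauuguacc
miR-181a-2-3p: aCCACUGAccguugacuguacc
miR-181b-3p: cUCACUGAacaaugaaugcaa
miR-181b-2-3p: cUCACUGAucaaugaaugca
miR-181c-3p: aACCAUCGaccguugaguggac
miR-181d-3p: cCACCGGGggaugaaugucac

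The 4 abundant 5p arms differed from one another only outside the seed. Counted from 1 at the 5′ end, miR-181b-5p differed from miR-181a-5p by A9U, C10U and A21G, and miR-181d-5p differed from miR-181b-5p by C12U alone. miR-181c-5p equalled miR-181a-5p with 1 base removed. The 6 3p arms carried 5 different seeds, with only miR-181b-3p and miR-181b-2-3p sharing one. miR-181a-2-3p differed from miR-181a-3p by U5C, C6U and U16C, of which the first 2 lie in the seed. miR-181c-3p and miR-181a-3p shared a run of 15 bases, but miR-181c-3p starts 1 base earlier in that run, which gives it another seed.

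The 6 precursors lie in 3 pairs. MIR181A1 (chr1:198859044-198859153, minus strand) and MIR181B1 (chr1:198858873-198858982, minus strand) are 61 bases apart within the long non-coding gene MIR181A1HG. MIR181A2 (chr9:124692442-124692551, plus strand) and MIR181B2 (chr9:124693710-124693798, plus strand) are 1158 bases apart within MIR181A2HG, which runs antisense to NR6A1. MIR181C (chr19:13874699-13874808, plus strand) and MIR181D (chr19:13874875-13875011, plus strand) are 66 bases apart within the span of the protein-coding gene NANOS3. In GENCODE release 29 (GRCh38), none of the 6 overlaps an exon of its host gene. The hairpins of MIR181A1, MIR181A2 and MIR181C are shown because both of their arms had more than 100 counts in every library, so that the balance of the arms could be followed. Capitals mark the 2 mature arms.
MIR181A1: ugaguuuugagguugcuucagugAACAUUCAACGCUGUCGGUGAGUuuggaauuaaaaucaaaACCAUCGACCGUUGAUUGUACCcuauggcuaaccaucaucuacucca
MIR181A2: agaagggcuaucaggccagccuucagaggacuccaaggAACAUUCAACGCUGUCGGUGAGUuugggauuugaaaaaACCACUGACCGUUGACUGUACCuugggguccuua
MIR181C: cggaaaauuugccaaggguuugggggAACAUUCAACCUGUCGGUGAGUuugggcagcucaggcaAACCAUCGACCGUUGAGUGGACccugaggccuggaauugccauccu

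Library totals ran from 6631839 to 16207031 counts over all rows, and from 4232272 to 10450005 with each mature name counted once. A count of 3 corresponded to between 0.176 and 0.471 counts per 1000000 (CPM, scaled by the TMM method). The CPM scale includes repeated rows, whereas the shares of counts below use each name once. The blood markers miR-142-3p and miR-342-3p averaged 9200 and 6790 CPM, miR-150-5p 259 CPM and miR-155-5p 7.15 CPM, whereas the muscle markers miR-1-3p, miR-133a-3p and miR-206 and the neuronal marker miR-124-3p had 0 counts. Markers of other cell types were not all absent: the myeloid miR-223-3p averaged 134 CPM, the epithelial miR-200c-3p 103 CPM (miR-205-5p had 0 counts) and the endothelial miR-126-3p 13.4 CPM, and the liver marker miR-122-5p ran from 0 to 66.8 CPM. Their part in the results was not tested. As a check of the labels, 5 h cells held 7.22 times the 0 h level of miR-132-3p, which is linked to activation (edgeR quasi-likelihood test, Benjamini-Hochberg adjusted p = 3.19e-12). Replicate 3 at 12 h, the shallowest library, held the highest level of all 4 miR-181 5p arms. Names outside the family also peaked there, but a larger part of the family did. Among 138 names with a mean of at least 100 per 1000000 counts (each counted once), 22 were highest and 31 lowest in this library. The family had 6 of the 138 names, and 4 of these 6 were among the 22 highest in this library. Values at 12 h whose sign or size depends on it are also given without it.

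The family held 7.45% ± 0.982 of the miRNA counts (SD, n = 9), nearly all of them from miR-181a-5p and miR-181b-5p. With each mature name counted once, the 10 miRNAs held 7.94%, 6.69% and 7.46% of the counts in the 0 h libraries 1 to 3, 7.31%, 6.35% and 7.09% in the 5 h libraries, and 7.11%, 7.34% and 9.78% in the 12 h libraries. The groups overlapped, and the value of 9.78% stood above the other 8 libraries. The mean share (± SD, n = 3 each) was 7.36% ± 0.63 for 0 h cells, 6.92% ± 0.503 for 5 h cells and 8.08% ± 1.48 for 12 h cells. The difference was 0.714 percentage points between 12 h and 0 h (exact two-sided permutation test, p = 0.7), -0.445 between 5 h and 0 h (exact p = 0.4) and 1.16 between 12 h and 5 h (exact p = 0.2). In bulk libraries a change in fewer cells and a change per cell cannot be told apart. With 3 libraries against 3 the smallest p this test can give is 0.1. Without replicate 3 at 12 h the difference between 12 h and 0 h was -0.14 percentage points and that between 12 h and 5 h was 0.308. The let-7 family, set beside it, held 36.5% to 41.6% of the counts over the 9 libraries, the miR-15/16 family 8.86% to 10.9% and the miR-30 family 0.169% to 0.283%.

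**Figure D1:**
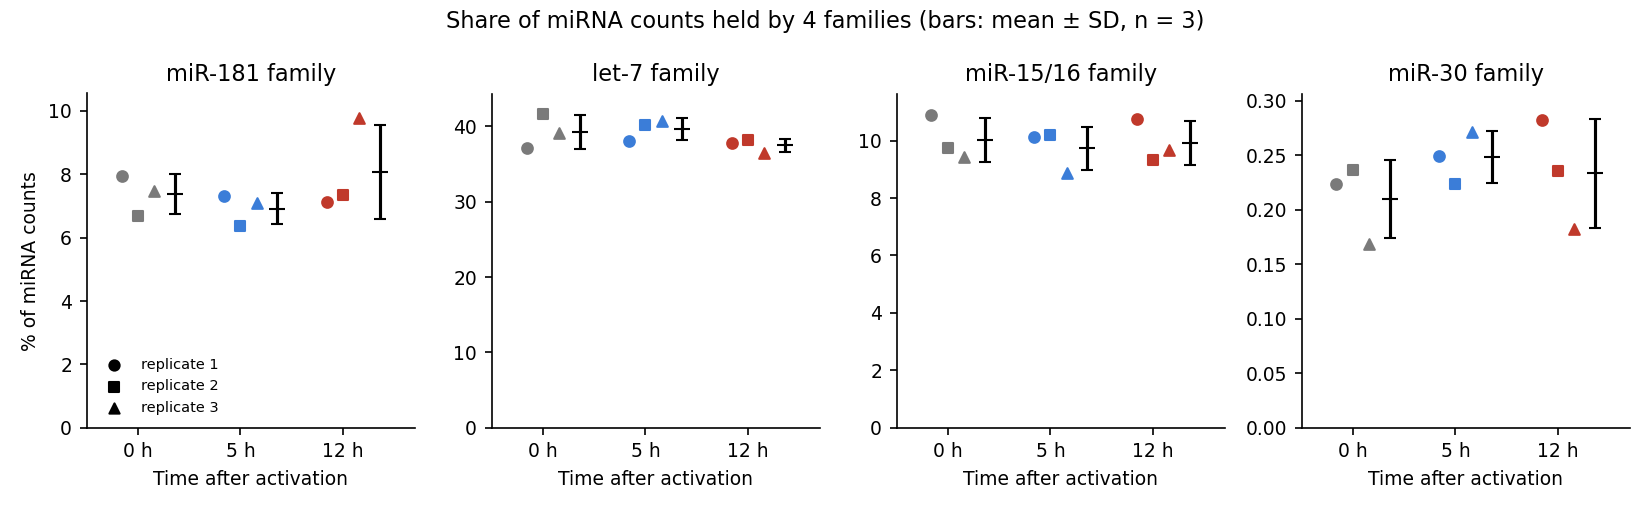
Share of miRNA counts (%, vertical axis, from 0) held by the miR-181, let-7, miR-15/16 and miR-30 families at 0 h, 5 h and 12 h; each point is 1 library and each bar is the mean ± SD of 3. The miR-181 share lay between 6.35% and 7.94% in 8 libraries and at 9.78% in replicate 3 at 12 h.

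Within the family the shares of miR-181a-5p and miR-181b-5p varied little. miR-181a-5p made up 59.9% to 64.2% of the family's counts over the 9 libraries and miR-181b-5p 32.8% to 36.8%. miR-181d-5p averaged 1.34%, miR-181a-3p 1.07% and miR-181c-5p 0.747%, and each of the other 5 stayed below 0.23%. Relative to their size these minor shares varied more, with miR-181a-3p from 0.787% to 1.19% and miR-181a-2-3p from 0.121% to 0.229%. The ratio of miR-181a-5p to miR-181b-5p was 1.77 ± 0.113 and that of miR-181d-5p to its cluster neighbour miR-181c-5p was 1.79 ± 0.175 (SD, n = 9).

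miR-181a-5p ranked 6 of 2654 names by mean level. It had 30640, 27000 and 32248 CPM at 0 h, 27403, 25491 and 26229 CPM at 5 h, and 25918, 29450 and 41682 CPM at 12 h. The 12 h libraries therefore held both a value within the 5 h range and the highest value of all 9. miR-181b-5p, at rank 12, had 17434, 15072 and 16912 CPM at 0 h, 16555, 14648 and 15770 CPM at 5 h, and 15924, 16213 and 21297 CPM at 12 h. Again the groups overlapped and replicate 3 at 12 h was the high library.

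The remaining 5p arms come from the chromosome 19 cluster and were far less abundant. miR-181d-5p had 645, 538 and 704 CPM at 0 h, 744, 615 and 538 CPM at 5 h, and 546, 589 and 815 CPM at 12 h. miR-181c-5p had 380, 323 and 383 CPM at 0 h, 337, 372 and 321 CPM at 5 h, and 305, 315 and 476 CPM at 12 h. For both, the times overlapped and replicate 3 at 12 h was the highest library.

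Of the 3p arms, miR-181a-3p was the most abundant, with 578, 482 and 560 CPM at 0 h, 543, 492 and 487 CPM at 5 h, and 440, 457 and 511 CPM at 12 h. miR-181a-2-3p, its counterpart from MIR181A2, had 107, 90.6 and 75.0 CPM at 0 h, 88.1, 95.5 and 81.3 CPM at 5 h, and 74.3, 68.4 and 78.8 CPM at 12 h. All 3 of the 12 h values of miR-181a-2-3p lay below all 3 of the 5 h values, and replicate 3 at 12 h was not the highest of the 9 libraries for either of these 3p arms. miR-181c-3p had 60.3, 39.5 and 59.0 CPM at 0 h, 48.7, 52.1 and 42.1 CPM at 5 h, and 54.5, 51.5 and 88.4 CPM at 12 h, with the groups overlapping.

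The other 3p arms were close to the limit of detection. miR-181b-3p had 0 to 12 counts at 0 h, 0 to 19 at 5 h and 0 to 12 at 12 h, with 1 library at 0 in each group. miR-181b-2-3p had 17 to 40 counts at 0 h, 8 to 74 at 5 h and 9 to 59 at 12 h, and miR-181d-3p had 36 to 55, 13 to 65 and 9 to 49 counts at the same times. At such counts changes of the size seen for the other members were not detectable, and no fold change is given for these 3.

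**Figure D2:**
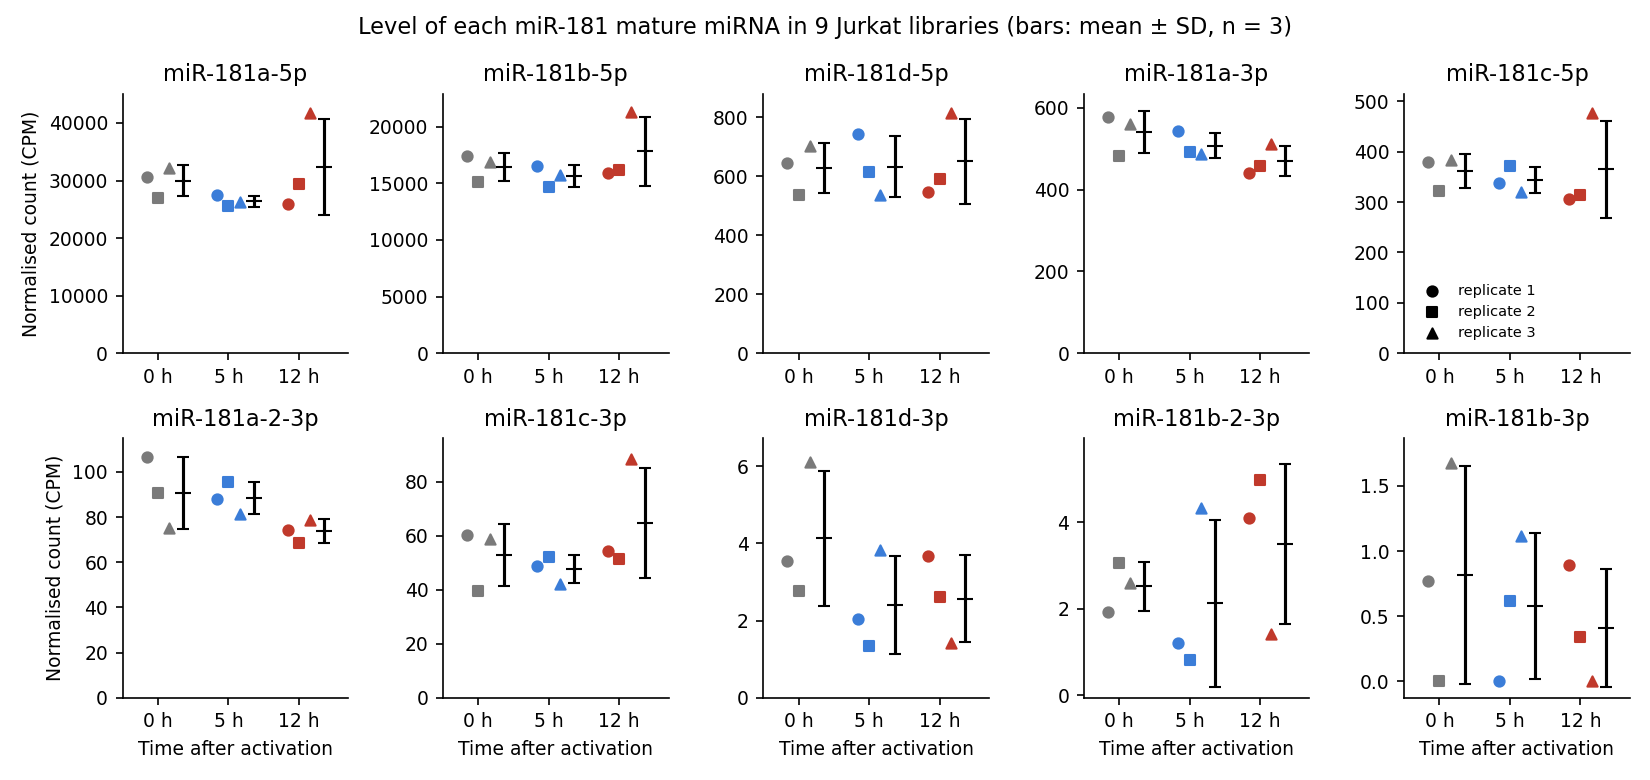
Normalised count (CPM, vertical axis) of each of the 10 mature miRNAs at 0 h, 5 h and 12 h; points are libraries, with a marker shape for each replicate number, and bars are the mean ± SD of 3. Replicate 3 at 12 h, the red triangle, is the highest point for the 4 5p arms and for miR-181c-3p, but not for miR-181a-3p or miR-181a-2-3p.

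The order of the members held across libraries for most neighbouring pairs. miR-181a-5p exceeded miR-181b-5p in 9 of 9 libraries, by 1.78-fold in the means, and miR-181b-5p exceeded miR-181d-5p by 26.1-fold. miR-181d-5p was above miR-181a-3p in each of the 9 libraries, but their ranges overlapped at 0 h and 5 h (1.26-fold in the means). miR-181a-3p was in turn above miR-181c-5p in 9 of 9 libraries, with overlapping ranges at 12 h. miR-181a-2-3p exceeded miR-181c-3p in 8 of 9 libraries. miR-181d-3p and miR-181b-2-3p did not differ beyond their spread, since the order held in only 4 of 9 libraries.

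No member passed the test in any comparison. All 12 rows passed the filter on low counts, and of these 0 were called at 5 h against 0 h, where 1.57% of the 701 rows tested were called, 0 at 12 h against 0 h (1.43% of all rows), 0 at 12 h against 5 h (0.571%) and 0 for any difference among the times (1.71%). These are calls of edgeR's quasi-likelihood test at an adjusted p of 0.05, and DESeq2, limma-voom and limma on the deposited log2 values also called 0. At an unadjusted p under 0.05 edgeR gave 2 of the 12 rows at 12 h against 5 h, both of them miR-181a-5p, and 0 in each other comparison, and the other tools gave 0. Over all 701 rows that share was 6.13% at 12 h against 5 h, 5.99% at 5 h against 0 h, 7.28% at 12 h against 0 h and 5.28% for any difference among the times. When replicate 3 at 12 h was left out, edgeR gave 0 of the 12 rows at 12 h against 5 h and 1 at 12 h against 0 h. The share of all rows at that threshold was not counted in the refit, so these counts were not weighed. With so few rows called in the whole table, the absence of a call among 12 rows does not set the family apart.

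The intervals show how large a change these libraries leave room for. For miR-181a-5p the log2 fold change at 5 h against 0 h was -0.18 (95% confidence interval -0.48 to 0.11), and at 12 h against 0 h it was 0.11 (-0.18 to 0.40), or -0.15 without replicate 3 at 12 h. At 12 h against 5 h it was 0.29 (0.0025 to 0.59, adjusted p = 0.72 by edgeR), and 0.06 without replicate 3 at 12 h. Over the alternatives the adjusted p of that comparison ran from 0.183 to 1. For miR-181b-5p the log2 fold changes were -0.07 (-0.32 to 0.18), 0.11 (-0.14 to 0.36) and 0.19 (-0.06 to 0.44) in the same order of comparisons. Without replicate 3 at 12 h the last 2 were -0.07 and 0.02. For these abundant arms the intervals against 0 h lie within a fold of 0.719 to 1.32.

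The intervals for the less abundant members were wider, except that of miR-181a-3p, which was narrower than that of miR-181a-5p. The log2 fold change at 12 h against 0 h was 0.05 (-0.29 to 0.39) for miR-181d-5p, 0.01 (-0.33 to 0.36) for miR-181c-5p and 0.29 (-0.23 to 0.81) for miR-181c-3p. It was -0.20 (-0.47 to 0.06) for miR-181a-3p and -0.30 (-0.70 to 0.10) for miR-181a-2-3p. Without replicate 3 at 12 h the values for miR-181d-5p, miR-181c-5p and miR-181c-3p were -0.19, -0.26 and -0.03, and those for miR-181a-3p and miR-181a-2-3p were -0.30 and -0.38. Of the member rows, only miR-181a-2-3p had groups that did not overlap, and only at 12 h against 5 h (-0.26, -0.66 to 0.14). Non-overlapping groups were found for 12.8% of all rows in that comparison. The share was 10.8% at 5 h against 0 h and 12.1% at 12 h against 0 h.

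**Figure D3:**
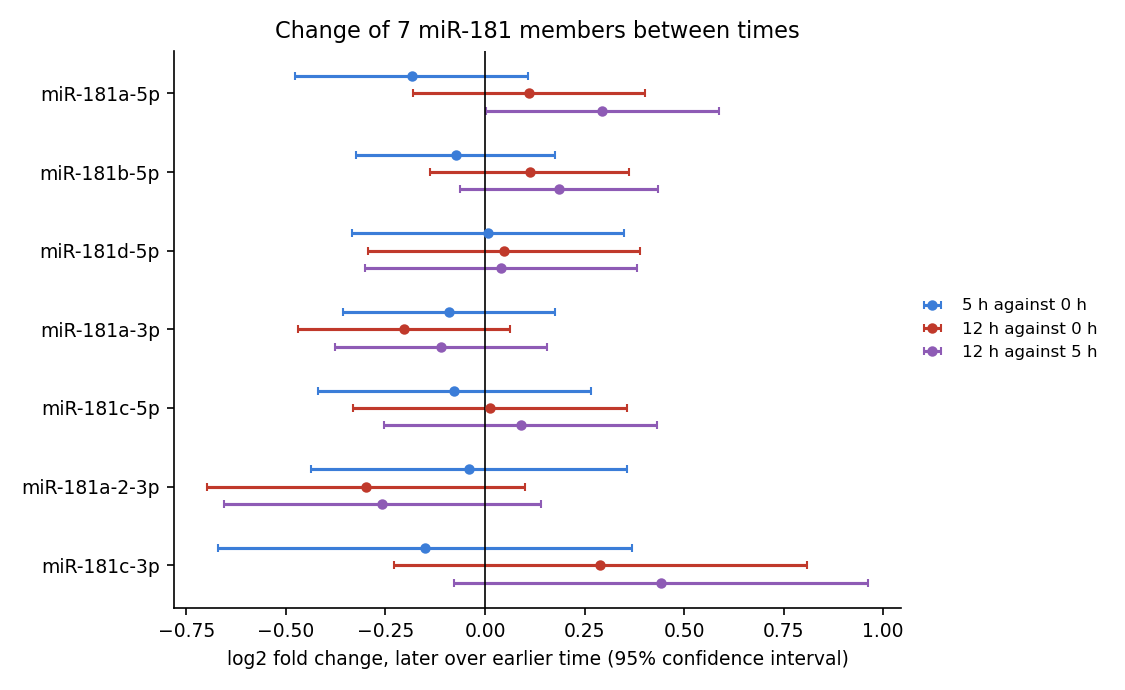
Log2 fold change of the later over the earlier time (horizontal axis) with its 95% confidence interval for the 7 members with more than 100 counts in every library, from edgeR over all 9 libraries. Of the 21 intervals, only that of miR-181a-5p at 12 h against 5 h (0.0025 to 0.59) does not include 0.

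The direction of the members was mixed between comparisons. At 5 h against 0 h, 11 of the 12 rows had a negative log2 fold change, with a median of -0.14 against 0.03 over all 701 rows. At 12 h against 0 h, 4 were negative and 8 positive (median 0.06 against 0.01), and at 12 h against 5 h, 3 were negative and 9 positive (median 0.14 against -0.03). The count at 12 h against 0 h turned on single libraries. With replicate 3 at 12 h left out, 11 rows were negative and 1 positive (median -0.17 against -0.09 over all rows), and without replicate 2 at 0 h, 9 were negative and 3 positive. At 12 h against 5 h the median without replicate 3 at 12 h was 0.04, with 4 rows negative and 8 positive. The comparisons share libraries pairwise, and the 2 rows of miR-181a-5p are almost the same counts. Of 20 other miRNAs linked to T cells, 18 were tested. At 5 h against 0 h 4 of them rose and 0 fell (median 0.07), the risers being miR-132-3p, miR-21-5p (2.66-fold), miR-146a-5p (1.87-fold) and miR-222-3p (1.41-fold). Against 0 h, 3 rose at 12 h and 0 fell (median 0.16), namely miR-132-3p (7.99-fold), miR-146a-5p (3.46-fold) and miR-21-5p (3.34-fold). Between 12 h and 5 h 1 rose, miR-146a-5p (1.85-fold), and 0 fell (median -0.04). The largest of the 21 fold changes of the 7 better-counted miR-181 members was 1.36-fold, for miR-181c-3p at 12 h against 5 h (95% confidence interval 0.947 to 1.95). Its log2 fold change there was 0.44, and 0.14 without replicate 3 at 12 h.

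**Figure D4:**
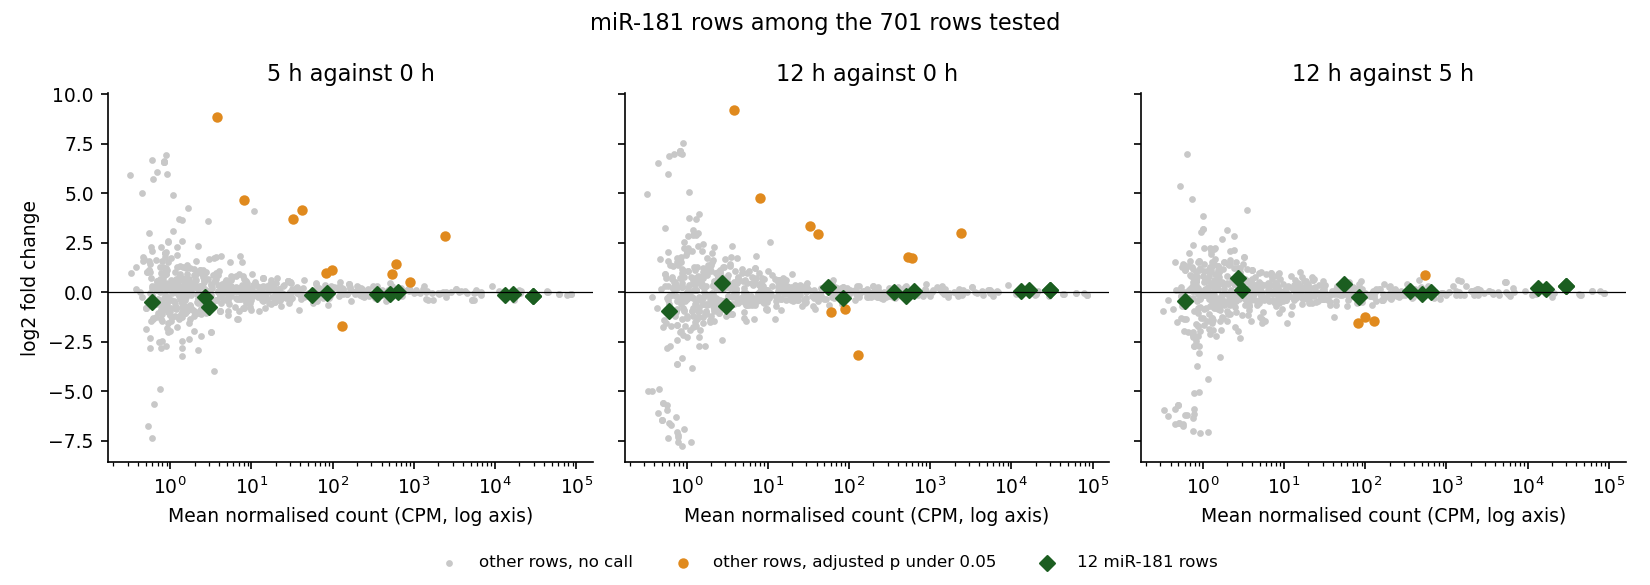
Log2 fold change (vertical axis) against mean CPM (horizontal log axis) for the 701 rows tested in each comparison; green diamonds are the 12 miR-181 rows, orange points are other rows with an adjusted p under 0.05 and grey points are the rest. The miR-181 rows lie near 0 at mean levels above 50 CPM, and the 3 low 3p arms lie where the other rows also scatter widely.

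Because the 5p arms share a seed, their counts were also added together. The seed ACAUUCA is carried by the 4 5p arms and by miR-4262, which had 0 counts in all 9 libraries. This seed family ranked 5 among the seed families by mean share of counts, at 7.35% ± 0.979 (SD, n = 9). Larger shares were held by the let-7a-5p seed (38.8%), the seed of miR-191-5p (12.2%), the miR-16-5p seed (9.89%) and the seed of miR-93-5p (8.61%), and the next smaller share belonged to the seed of miR-26a-5p (5.69%). In edgeR over 475 seed families the log2 fold change of the sum was -0.11 at 5 h against 0 h (95% confidence interval -0.34 to 0.13, adjusted p = 0.997) and 0.14 at 12 h against 0 h (-0.10 to 0.37, adjusted p = 0.956), which became -0.09 without replicate 3 at 12 h. At 12 h against 5 h it was 0.25 (0.0098 to 0.48, adjusted p = 0.829), and 0.08 without replicate 3 at 12 h. The shares of families called were 1.89%, 1.89% and 0.842% in these comparisons, and 2.11% for any difference among the times, where the adjusted p of this family was 0.886. By sequence, 2365 of the 2654 names could be given a seed, and these held 97.6% of the counts.

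At each of the 6 precursors the 5p arm dominated. Among the 165 precursors with both arms tested, 88 had more counts on the 5p arm and 77 on the 3p arm. The mean log2 ratio of 5p to 3p was 5.86 at mir-181a-1, 8.45 at mir-181a-2, 7.82 at mir-181d and 2.72 at mir-181c. At mir-181b-2 it was 12.77, with 8 to 74 counts of the 3p arm in a library. At mir-181b-1 it was 15.26, which depends on the 0.5 added to each count, since some libraries had 0 counts of the 3p arm. The size of the ratio ranked 5 at mir-181b-1, 11 at mir-181b-2, 25 at mir-181a-2, 31 at mir-181d, 48 at mir-181a-1 and 109 at mir-181c of the 165, against a median absolute log2 ratio of 3.76. Nearly the same miR-181a-5p count stands on both miR-181a rows. The 2 ratios at mir-181a-1 and mir-181a-2 therefore share a numerator, and neither counts the 5p reads of that precursor alone. The sequence of miR-181b-5p is likewise the same at mir-181b-1 and mir-181b-2, so their ratios may not be those of each precursor alone either.

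The share of the 3p arm at mir-181a-1 was 1.85%, 1.76% and 1.71% at 0 h, 1.94%, 1.89% and 1.82% at 5 h, and 1.67%, 1.53% and 1.21% at 12 h. The 12 h values were below all 6 others. At mir-181a-2 it was 0.347%, 0.335% and 0.232% at 0 h, 0.321%, 0.373% and 0.309% at 5 h, and 0.286%, 0.232% and 0.189% at 12 h, where the 12 h values were below all of the 5 h values. At mir-181c it was 13.7%, 10.9% and 13.3% at 0 h, 12.6%, 12.3% and 11.6% at 5 h, and 15.2%, 14.1% and 15.7% at 12 h, so that here the 12 h values were above all 6 others.

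None of these shifts passed the test. limma called 0 of the 6 precursors in each pair of times, and 0% of all 165 in each, and 0 of the 6 had an unadjusted p under 0.05. With the spread modelled by the count of the weaker arm, an alternative chosen after seeing the data, 0 of the 6 were called either. Of all 165, that alternative called 1 at 5 h against 0 h, 0 at 12 h against 0 h and 1 at 12 h against 5 h. Its unadjusted p of limma at 12 h against 5 h was 0.0409 at mir-181a-1 and 0.0399 at mir-181a-2 (adjusted p = 0.562 for both). These 2 ratios share a numerator. The share of all 165 at an unadjusted p under 0.05 was not counted in either fit, so such counts were not weighed. The log2 ratio of 5p to 3p changed by 0.29 at mir-181a-1 at 12 h against 0 h (95% confidence interval -0.36 to 0.93, adjusted p = 0.847) and by 0.38 at 12 h against 5 h (-0.26 to 1.02, adjusted p = 0.867). Without replicate 3 at 12 h these were 0.15 and 0.24. At mir-181a-2 it changed by 0.52 at 12 h against 5 h (-0.28 to 1.33, adjusted p = 0.867), and by 0.37 without that library. At mir-181c it changed by -0.29 at 12 h against 0 h (-0.85 to 0.27, adjusted p = 0.84) and by -0.34 at 12 h against 5 h (-0.90 to 0.22, adjusted p = 0.867), and by -0.25 and -0.30 without that library. Non-overlapping groups were found for 14.5% of all 165 precursors at 12 h against 0 h and for 15.2% at 12 h against 5 h.

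**Figure D5:**
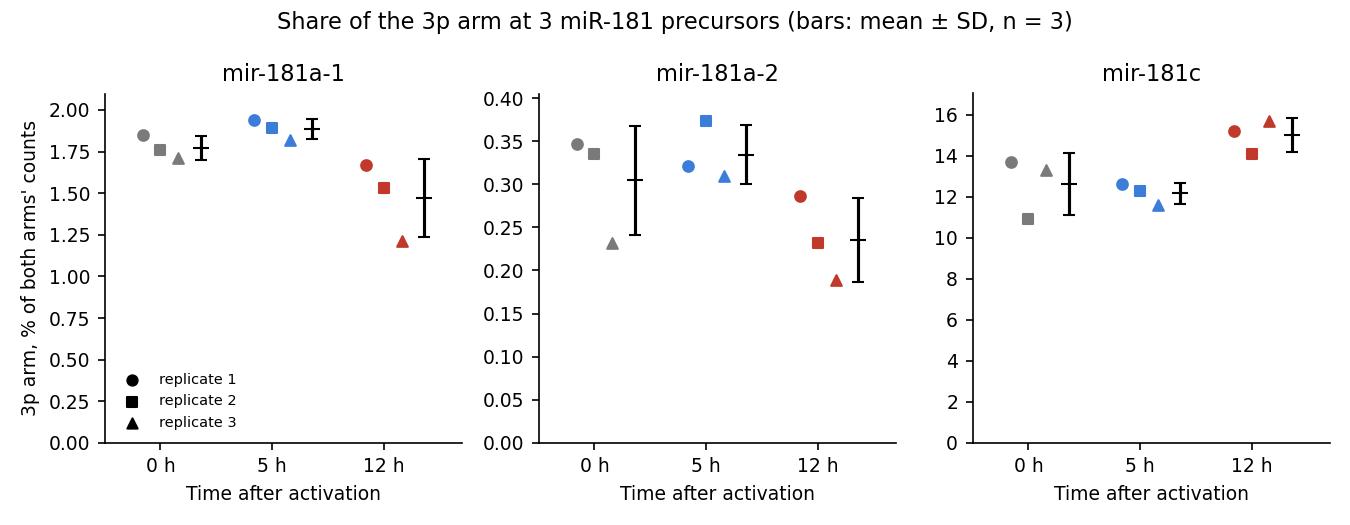
Share of the 3p arm in the counts of both arms (%, vertical axis, from 0) at mir-181a-1, mir-181a-2 and mir-181c at 0 h, 5 h and 12 h; points are libraries and bars the mean ± SD of 3. The 12 h points are the lowest 3 at mir-181a-1 (1.21% to 1.67%) and the highest 3 at mir-181c (14.1% to 15.7%); no change passed the test.

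miR-181a-3p and miR-181a-2-3p differ in sequence, so their counts separate the chromosome 1 and chromosome 9 precursors, which the shared miR-181a-5p does not. miR-181a-3p exceeded miR-181a-2-3p 5.42, 5.32 and 7.48 times at 0 h, 6.16, 5.15 and 5.99 times at 5 h, and 5.93, 6.69 and 6.49 times at 12 h. The groups overlapped, and the widest spread was at 0 h. The mean log2 ratio (± SD, n = 3 each) was 2.58 ± 0.275 for 0 h cells, 2.52 ± 0.139 for 5 h cells and 2.67 ± 0.0905 for 12 h cells. Its difference was -0.06 between 5 h and 0 h (exact two-sided permutation test, p = 0.8), 0.08 between 12 h and 0 h (exact p = 0.8) and 0.14 between 12 h and 5 h (exact p = 0.3).

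The 2 rows of a shared 5p arm were not filled alike. For miR-181a-5p the mir-181a-1 row held 100.02% to 100.04% of the mir-181a-2 row. For miR-181b-5p the mir-181b-1 row held 81.7%, 80.2% and 82.7% of the mir-181b-2 row at 0 h, 78.7%, 78.5% and 78.4% at 5 h, and 78.0%, 78.0% and 80.5% at 12 h. The 5 h values lay below all of the 0 h values, while the 12 h values overlapped them. How many other repeated names had row ratios that separated in this way was not counted, so this was not weighed. The mature sequence is the same at both loci, and what separates the rows was not tested. Levels of miR-181b-5p above are those of the larger, mir-181b-2 row.

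The members were also compared with one another and with other miRNAs by their pattern over the libraries. Pearson's r of log2 CPM, a description over 9 libraries that share depth and scaling, was 0.946 between miR-181a-5p and miR-181b-5p (0.788 without replicate 3 at 12 h) and 0.805 between miR-181c-5p and miR-181d-5p (0.638). It was 0.38 between miR-181a-5p and miR-181a-3p (0.638) and -0.187 between miR-181a-5p and miR-181a-2-3p (-0.103). Among 114 other mature miRNAs of at least 100 CPM, the 5 most like miR-181a-5p were miR-1246 (r = 0.98), miR-93-5p (0.928), miR-425-3p (0.908), miR-1307-3p (0.903) and miR-151a-5p (0.898). Without the 2 libraries farthest from the median, replicates 3 at 12 h and 0 h, these were 0.967, 0.937, 0.815, 0.822 and 0.916. The 5 most like miR-181b-5p were miR-1246 (0.902), miR-1307-3p (0.855), miR-151a-5p (0.847), miR-660-5p (0.845) and miR-320a-3p (0.829). Without replicate 3 at 12 h and replicate 2 at 5 h the value for miR-660-5p was 0.311 and the other 4 lay between 0.712 and 0.843.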

How the data were processed

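Per the submitters' processing notes the build was GRCh38.p13 and the authors used DESeq2; its version, the aligner and the counter were not given in the sources used here. The authors deposited raw counts per precursor and mature miRNA, and a table of log2 values for the 430 rows above 0 in all 9 libraries, which match log2(count/factor + 1), with a factor for each library, to within 5.05e-09. Counts were filtered with filterByExpr (minimum count 10, minimum total 15), scaled by TMM over all table rows, repeated rows included, and fitted in edgeR 4.0.16 (R 4.3.3) with 1 mean per time over all 9 libraries. Adjusted p-values are Benjamini-Hochberg over all features of a comparison. Arm ratios, log2 of (5p + 0.5)/(3p + 0.5), were fitted in limma 3.58.1, and shares were compared with exact permutation tests (scipy 1.17.1). Floors cover counting error only. Members, lists and comparisons were chosen with earlier results of these data known. The miRNAs named besides the members are the 5 most correlated with miR-181a-5p and with miR-181b-5p, the called members of a list of 20, and 3 comparison families. The fits were also run on simulated data, where the arm ratios of all precursors had the same spread, unlike here. No result rests on that run. Alternatives were other scalings and filters, DESeq2 1.42.0, limma-voom, the deposited log2 values, a replicate term and leaving out each library.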

Additional observations from a re-analysis of the deposited data

How the results depend on the processing

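Under every alternative run, 0 members and 0 miR-181 arm ratios were called. In all, the alternatives called between 3 and 21 rows and between 0 and 3 arm ratios in a comparison. Some values changed sign, among them miR-181c-3p at 12 h against 0 h (0.29, and -0.0341 without replicate 3 at 12 h). Every sign change is given here, in log2 unless stated, and the cause was not tested. For miR-181d-5p at 5 h against 0 h the value was -0.0237 with DESeq2 or RLE factors, -0.0008 with upper quartile factors, -0.0273 unfiltered, -0.0679 with a stricter filter, -0.017 with only the 2 times compared, -0.0241 with 1 row per miRNA and -0.0265 from the deposited log2 values. For miR-181c-5p at 12 h against 0 h it was -0.0173 with DESeq2, -0.0169 with RLE factors, -0.0126 unfiltered, -0.0055 with a stricter filter, -0.044 with limma-voom and -0.04 from the deposited log2 values. miR-181a-2-3p at 5 h against 0 h was 0.0064 with library totals, and miR-181a-3p at 12 h against 5 h was 0.0532 with upper quartile factors. Without the 2 shallowest libraries, replicates 3 at 12 h and 0 h, the values at 12 h against 0 h were -0.0695 for miR-181a-5p, -0.0277 for miR-181b-5p, -0.193 for miR-181c-5p, -0.071 for miR-181d-5p and, in alternatives chosen after seeing the data, -0.0226 for the seed family and -0.0873 percentage points for the share of counts; at 12 h against 5 h they were -0.16 for both miR-181c-5p and miR-181d-5p.

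Leaving out each library in turn, 28 values changed sign. At 12 h against 0 h the range was -0.15 to 0.21 for miR-181a-5p, -0.0708 to 0.16 for miR-181b-5p, -0.26 to 0.0891 for miR-181c-5p, -0.19 to 0.14 for miR-181d-5p, -0.0341 to 0.41 for miR-181c-3p, -0.0926 to 0.23 for the seed family, -0.14 to 1.20 percentage points for the share and -0.0021 to 0.24 for the ratio of miR-181a-3p to miR-181a-2-3p. At 5 h against 0 h it was -0.17 to 0.095 for miR-181d-5p, -0.16 to 0.12 for miR-181a-2-3p, -0.147 to 0.0977 for the ratio of the 2 3p arms, -0.26 to 0.0315 for the mir-181a-2 arm ratio and -0.0133 to 0.17 for that of mir-181c. At 12 h against 5 h it was -0.16 to 0.19 for miR-181c-5p and -0.17 to 0.18 for miR-181d-5p.

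The labels give the times the same replicate numbers, but the numbers were not shown to pair the libraries: deviations from the group means of same-numbered libraries correlated between -0.179 and 0.255 over 283 rows. With a replicate block edgeR called 0 members in any comparison. Of the 701 rows it called 13 at 5 h against 0 h, 11 at each other pair of times and 21 for any difference. In that fit miR-181a-5p at 12 h against 5 h had a log2 fold change of 0.27 and an edgeR adjusted p of 0.492. The value for miR-181c-5p at 12 h against 0 h was -0.0041. Depth limits the values of miR-181b-3p, miR-181b-2-3p and miR-181d-3p, which had at most 74 counts in any library.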
